A study of Mus musculus with 6 samples.

Results

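Respiratory complex I is the NADH dehydrogenase of the mitochondrial inner membrane, and most of its subunits are built from nuclear genes whose symbols begin with Nduf. The deposited gene table held 48 such genes coding for protein, of 55414 annotated genes in all, and they were chosen by symbol and biotype alone. Of these, 40 were structural subunits (Ndufa, Ndufb, Ndufc, Ndufs or Ndufv with a number, and Ndufab1) and 8 were assembly factors (Ndufaf), proteins that help to build the complex and are not part of it. Expression was measured by RNA sequencing of mouse liver and is given as FPKM, fragments per kilobase of gene and per M fragments of the library (M stands for 1000000).

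All mice were 12-week-old males, fasted for 16 hours. The control group carried the genotype labelled Gapfl and drank plain water. Both other groups carried the genotype labelled GapAlb KO, which the series title describes as a GAPDH knockout specific to hepatocytes, with plain water in one group and 5% serine in the water of the other. A group had 2 libraries, made from RNA pooled over 2 mice each, so that p-values measure the spread between pools. A control group on serine was not analysed here, and whole liver was sequenced, so that fewer cells of a type and less RNA per cell cannot be told apart.

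Complex I oxidises NADH in the matrix, passes the electrons to ubiquinone and pumps protons across the inner membrane. Its matrix arm binds NADH and carries the iron-sulphur clusters, its membrane arm holds the proton pumps, and the catalytic core is made from both nuclear and mitochondrial genes. Around that core lie accessory subunits, and assembly factors bring the pieces together step by step. GAPDH, deleted here, is the glycolytic enzyme that makes NADH in the cytosol, whose electrons reach the respiratory chain through shuttles.

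The libraries were alike in depth, at an implied 17.3 M to 19.2 M fragments. Gapdh checked the labels, at 1091 and 1391 FPKM in the control libraries and between 17.0 and 23.8 FPKM in the 4 knockout libraries. The 5 hepatocyte markers had a summed level of 53068 to 58561 FPKM in controls, 45068 to 54818 in knockouts on water and 49032 to 51398 on serine. Of these 5, only Cps1 had a positive change in either comparison with control, and 0 were called. The mean of Cps1 was 1261 FPKM in controls, 2901 in knockouts on water and 3013 on serine. All 5 lymphocyte and all 4 pancreas markers had means under 1 FPKM over the 6 libraries, and Ly6g, Mpo, Adipoq, Ckm and Tnnt3 were listed at 0 in every library. The lymphocyte markers summed to 2.61 and 1.59 FPKM in controls and from 0.65 to 1.5 FPKM in the 4 knockout libraries. Sums of the pancreas markers were 3.73 and 2.2 FPKM in controls, 4 and 0.48 in knockouts on water and 0.16 and 0 on serine. The sums for 5 Kupffer cell and 5 sinusoidal endothelium markers lay between 51.8 and 72.5 and between 68.4 and 88.5 FPKM over all libraries. The 5 stellate cell markers summed to 63.4 and 49.7 FPKM in controls, 61.2 and 73.4 in knockouts on water and 86.7 and 75.9 on serine. On serine all 3 of them that were tested lay above control without overlap, as did 41.5% of all genes. The median change of these 3 was 0.52 on the log2 scale, with 0 called. The sums for 5 red cell, 4 neutrophil and 4 skeletal muscle markers lay between 736 and 1605, 1.52 and 4.84, and 0.87 and 2.33 FPKM. Among the neutrophil markers, S100a8 had means of 2.14 FPKM in controls, 0.60 in knockouts on water and 0.485 on serine. Those of S100a9 were 1.23, 3.49 and 1.24 FPKM. The 5 cholangiocyte markers summed to 16.5 and 22.1 FPKM in controls, 8.72 and 13.5 in knockouts on water and 20.3 and 10.4 on serine. The 4 adipocyte markers summed to 82.8 and 95.2 FPKM in controls, 211 and 206 in knockouts on water and 155 and 193 on serine, and Cidec, a lipid droplet gene among them, passed the test as higher in knockouts on water. The cholangiocyte marker Sox9 passed as lower in knockouts on serine, from 2.66 ± 0.481 FPKM (SD, n = 2) in controls to 0.37 ± 0.0283 FPKM. Sox9 reached the filter of 1 FPKM only through the controls, so this call carries little weight. Of the 5 cholangiocyte markers 3 lay below the filter. The other marker tested, Spp1, had means of 15.3 FPKM in controls and 14.0 FPKM on serine, with overlap. The part of these differences in the results below was not tested.

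In control liver the 38 structural subunits with a mean of 1 FPKM or more over the 6 libraries ranged from 14.5 FPKM (Ndufb1) to 471 FPKM (Ndufa4), a 32.4-fold range with a median of 114 FPKM. The 8 assembly factors were lower, from 2.31 FPKM (Ndufaf5) to 18.2 FPKM (Ndufaf8) with a median of 11.9 FPKM. Ndufa4 bears the family name but is assigned to complex IV, and the subunit next in order was Ndufa3 of the membrane arm at 379 ± 29.1 FPKM (SD, n = 2). Ndufa1 at 273 ± 5.61 FPKM and Ndufb9 at 267 ± 0.863 FPKM followed and differed by about the spread between replicates. The same subunits stood at the ends of the order in knockouts, with Ndufb1 lowest at 14.2 FPKM on water and 14.8 on serine, and Ndufa4 highest at 532 and 543 FPKM.

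Levels between genes depend on the gene model that the authors used. In a check of depth on single-exon genes of 500 to 1500 bases, values behaved as if 290 to 320 bases had been taken off each length. If this holds for other genes, it weighs most on short models such as Ndufa1 (419 bases) and Ndufa2 (572 bases). Ndufb4 also shares sequence with a processed pseudogene row, Ndufb4c, whose 390 transcript bases are identical to a stretch of the Ndufb4 transcript in GENCODE vM21. Between 19.6% and 31.4% of the implied fragments of both rows stood in Ndufb4c, so the level of Ndufb4 itself is uncertain. That share and the joined counts below are uncertain too, since the 290 to 320 bases taken off are most of the 390 in Ndufb4c. At 390 bases Ndufb4c also lies below the lengths checked. As deposited, Ndufb4c lay at 164 and 193 FPKM in controls and from 229 to 251 FPKM in the knockout libraries. Joined, the rows held 58.5 and 61.5 fragments per M in controls, 78.7 and 84.6 in knockouts on water and 82.1 and 84.2 on serine, without overlap between control and either knockout group.

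Members outside the test were Ndufb11b, listed at 0 in every library, and Ndufa4l2, a relative of Ndufa4 at 0.37 to 1.15 FPKM. The other 46 members all passed the filter. Some rows may share reads with a neighbour: 23 members overlap another annotated gene, 15 of them one with a mean of 1 FPKM or more, such as Ndufs6 with Mrpl36 and Ndufaf3 with Impdh2. The use of strand in counting is not given in the sources used here.

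**Figure D1:**
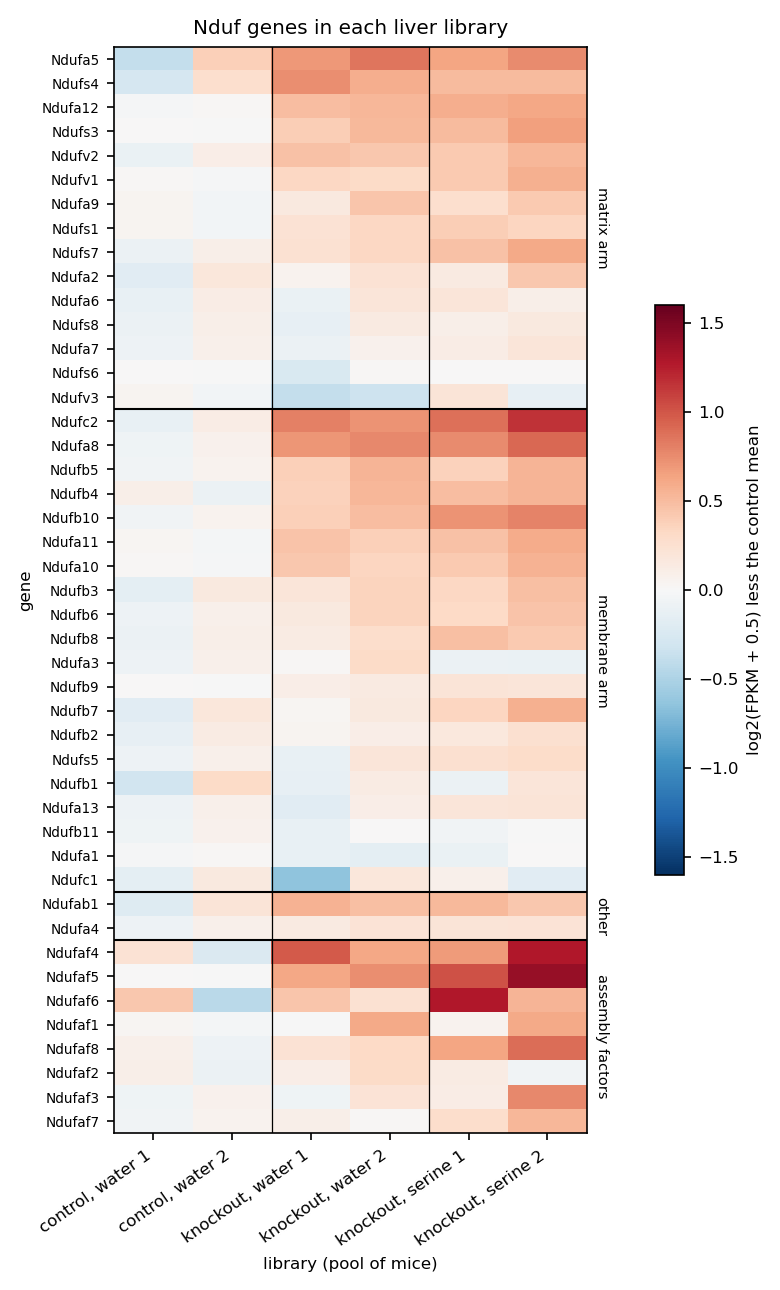
Level of 45 of the tested Nduf genes (rows) in each of 6 liver libraries (columns), as log2(FPKM + 0.5) less the mean of the control libraries (colour). Genes are grouped into matrix arm, membrane arm, other (Ndufab1 of both arms and Ndufa4 of complex IV) and assembly factors, and red marks higher than control, as for Ndufc2 and Ndufa8 in all 4 knockout libraries.

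The first comparison asked how complex I genes differ in fasted liver without hepatocyte Gapdh. Knockouts on water had somewhat higher levels of many Nduf genes than controls, but no single member passed the test over all genes. The median structural subunit differed by 0.23 on the log2 scale and the median assembly factor by 0.29, where the median of all 11134 genes tested differed by 0.08. Of the 38 structural subunits, 30 had a positive change, as did 8 of 8 assembly factors and 58.9% of all genes. Changes are log2 fold changes of FPKM + 0.5 from limma, and 26 structural subunits and 6 assembly factors lay above the median gene.

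The number of members called at a Benjamini-Hochberg adjusted p under 0.05 was 0 of 46, where 1.21% of all genes were called, and 0.808% were called higher. At an unadjusted p under 0.05, 14 structural subunits and 2 assembly factors were higher and 1 structural subunit was lower, where 14% of all genes were higher and 7.63% lower. Both knockout libraries lay above both control libraries for 23 structural subunits and 4 assembly factors, below them for 2 structural subunits (Ndufv3 and Ndufa1), and overlapped for the remaining 17 members. Among all genes, 34.4% lay above and 20.9% below. Without the first control library the structural median was 0.13, against a median of 0.11 for all genes, and without the second knockout library it was 0.15. The assembly median was 0.18 without the second control library and 0.17 without the second knockout library.

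The largest changes were in members of each class. Ndufa8, an accessory subunit on the intermembrane side of the membrane arm, lay at 99.7 and 109 FPKM in controls and at 170 and 178 FPKM in knockouts on water. Its log2 change of 0.74 (SE 0.13) missed the threshold in limma with Benjamini-Hochberg adjustment (adjusted p = 0.0552). Ndufc2, a small subunit of the membrane arm, lay at 95.8 and 112 FPKM in controls and at 182 and 171 FPKM in these knockouts (0.76, SE 0.15, adjusted p = 0.0683). Neither gene's libraries overlapped between the groups.

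Ndufa5, an accessory subunit of the matrix arm, had control libraries far apart, at 90.6 and 154 FPKM, below 191 and 214 FPKM in knockouts on water. Its change was 0.77 (SE 0.25, adjusted p = 0.149). Ndufs4, a matrix arm subunit whose loss causes Leigh-like disease in mice, had a like pattern, at 34.5 and 50.6 FPKM against 70.7 and 63.0 FPKM. For both genes the first control library was the lowest of the 6.

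At the other end stood Ndufv3, an accessory subunit near the NADH-binding site, at 130 and 123 FPKM in controls and 96.6 and 99.8 FPKM in knockouts on water. It was the lowest change of the 46 (-0.36, SE 0.14, limma adjusted p = 0.219), and its groups did not overlap. Ndufa1 of the membrane arm lay at 269 and 277 FPKM in controls and 251 and 245 FPKM in these knockouts (-0.14, SE 0.11, adjusted p = 0.52). Ndufc1, with libraries from 36.3 to 64.7 FPKM, and the zinc-binding subunit Ndufs6, with libraries from 120 to 145 FPKM, had changes of -0.23 and -0.11 with overlapping groups.

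The 7 core subunits of nuclear origin carry the flavin, the iron-sulphur clusters and the quinone site, and their median change was 0.28. Ndufs3, which links the clusters to the quinone part of the arm, lay at 110 FPKM in both control libraries and at 144 and 158 FPKM in knockouts on water (0.45, SE 0.12, limma adjusted p = 0.115). Ndufv1, which binds NADH and the flavin, lay at 108 and 105 FPKM against 134 and 132 FPKM (0.32, SE 0.12, adjusted p = 0.19). Ndufv2, its iron-sulphur partner, had a change of 0.45 (SE 0.13, adjusted p = 0.125).

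Ndufs1, which carries several clusters, and Ndufs7, next to the quinone site, each had a change of 0.28 (SE 0.12 and 0.13). Ndufs8, a ferredoxin-like subunit, lay at 72.3 and 82.4 FPKM against 70.1 and 85.5 FPKM, a change of 0.01 (SE 0.15) with overlap. The core subunits thus covered a span from 0.01 to 0.45, and 6 of 7 lay above control without overlap, as did 34.4% of all genes.

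Matrix arm subunits (16) had a median change of 0.28 and membrane arm subunits (20) one of 0.19. Of these, 10 and 11 lay above control without overlap, as did 34.4% of all genes. Ndufab1, the mitochondrial acyl carrier protein that sits in both arms, lay at 33.5 and 45.2 FPKM in controls and 57.3 and 54.4 FPKM in knockouts on water, without overlap.

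Among the assembly factors, whose roles are known largely from human cells, Ndufaf4, which acts with Ndufaf3 on the early matrix arm, lay at 17.2 and 12.3 FPKM in controls and 29.1 and 22.7 FPKM in knockouts on water (0.80, SE 0.26, limma adjusted p = 0.156). Ndufaf5, an enzyme that hydroxylates Ndufs7, lay at 2.32 and 2.30 FPKM against 3.81 and 4.22 FPKM (0.68, SE 0.20, adjusted p = 0.13). Its partner Ndufaf8 lay at 19.2 and 17.2 FPKM against 21.5 and 22.8 FPKM (0.28, SE 0.15). These 3 genes and Ndufaf2, a relative of Ndufa12 (0.21, SE 0.16), had groups that did not overlap.

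The other 4 factors overlapped between groups. Ndufaf1, of the membrane arm assembly complex, had a change of 0.30 (SE 0.26), and Ndufaf6, of early matrix arm assembly, one of 0.34 (SE 0.35) with control libraries at 11.1 and 5.84 FPKM. Ndufaf3 and Ndufaf7, a methyltransferase, had changes of 0.08 (SE 0.24) and 0.06 (SE 0.16). The lowest of the assembly factors, Ndufaf5, had an implied 62 to 176 fragments per library.

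**Figure D2:**
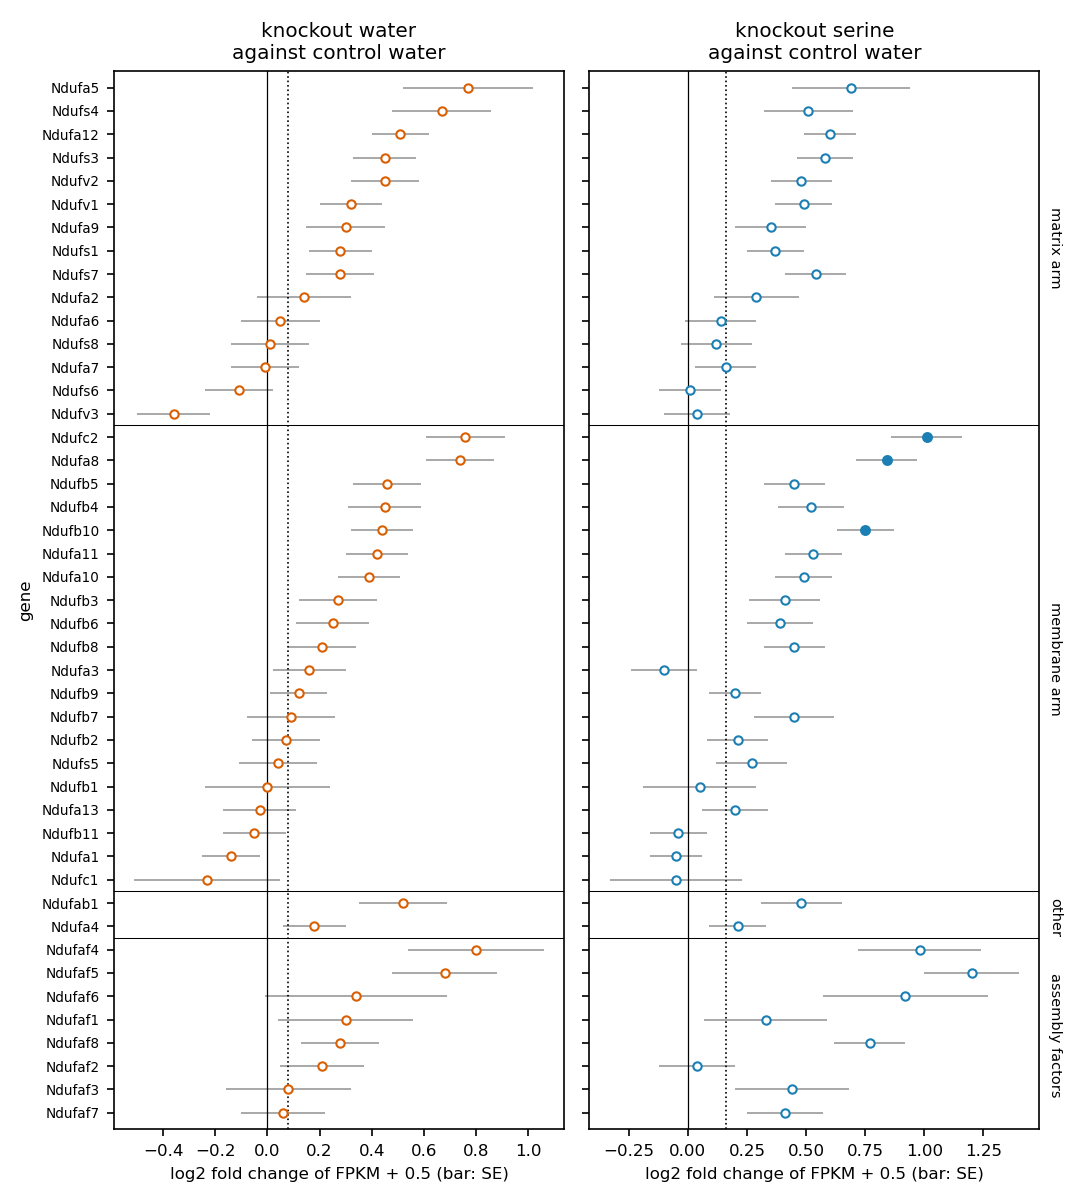
Log2 fold change of FPKM + 0.5 with its standard error for 45 of the tested Nduf genes, in knockouts on water (left) and on serine (right) against controls. Filled points had an adjusted p under 0.05 and the dotted line is the median of all genes tested, 0.08 on the left and 0.16 on the right. Ndufc2, Ndufa8 and Ndufb10 are filled on the right.

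The second comparison set knockouts on serine against the same control libraries, so it shares them with the first. In it 3 structural subunits, all of the membrane arm, were higher: Ndufc2, Ndufa8 and Ndufb10. Of all genes, 1.18% were called and 0.853% were called higher, against 3 of 46 members. The median change was 0.38 for structural subunits and 0.61 for assembly factors, and 0.16 for all genes. Relative to the median gene these were 0.22 and 0.44, and 0.20 to 0.22 and 0.43 to 0.45 under the other 3 scalings. Each scaling moves all genes of a library alike, so that likeness was fixed in advance and is no further support. Without the first control library the structural value was 0.06, with 23 of 38 subunits above the median gene.

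A positive change was found in 34 of 38 structural subunits and 8 of 8 assembly factors, against 66.3% of all genes, and 28 and 7 of them lay above the median gene. With median-of-ratios scaling, which brought the median of all genes from 0.16 to 0.02, 28 structural subunits and 7 assembly factors had a positive change. Since that scaling nearly centres the median gene, this count all but repeats the count above the median gene. At an unadjusted p under 0.05, 20 structural subunits and 5 assembly factors were higher and 0 members lower, where 19.8% of all genes were higher and 5.95% lower. Groups did not overlap for 28 structural subunits and 7 assembly factors above control and for 1 structural subunit (Ndufa3) below it, where 41.5% of all genes lay above and 15.5% below.

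Ndufc2 (ENSMUSG00000030647, chromosome 7, 97049210 to 97057009, plus strand, GRCm39) stood at 191 and 231 FPKM on serine, against 95.8 and 112 FPKM in controls. It rose by 1.01 on the log2 scale (SE 0.15, adjusted p = 0.0454 by Benjamini-Hochberg in limma). Ndufa8 (ENSMUSG00000026895, chromosome 2, 35926338 to 35939418, minus strand) stood at 177 and 198 FPKM, against 99.7 and 109 FPKM (0.84, SE 0.13, adjusted p = 0.0454). Ndufb10 (ENSMUSG00000040048, chromosome 17, 24941034 to 24943452, minus strand), a subunit on the intermembrane side of the distal membrane arm, stood at 283 and 297 FPKM against 166 and 178 FPKM (0.75, SE 0.12, adjusted p = 0.0486). In knockouts on water Ndufb10 lay between, at 224 and 243 FPKM.

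These calls lay close to the threshold. All 3 were lost with median-of-ratios scaling, where 16 genes of any kind were called higher, against 95 in the main fit. They were also lost without the filter on low values, without the variance trend, and with only the 4 libraries compared. Those fits called 2, 4 and 4 genes of any kind higher, in that order.

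**Figure D3:**
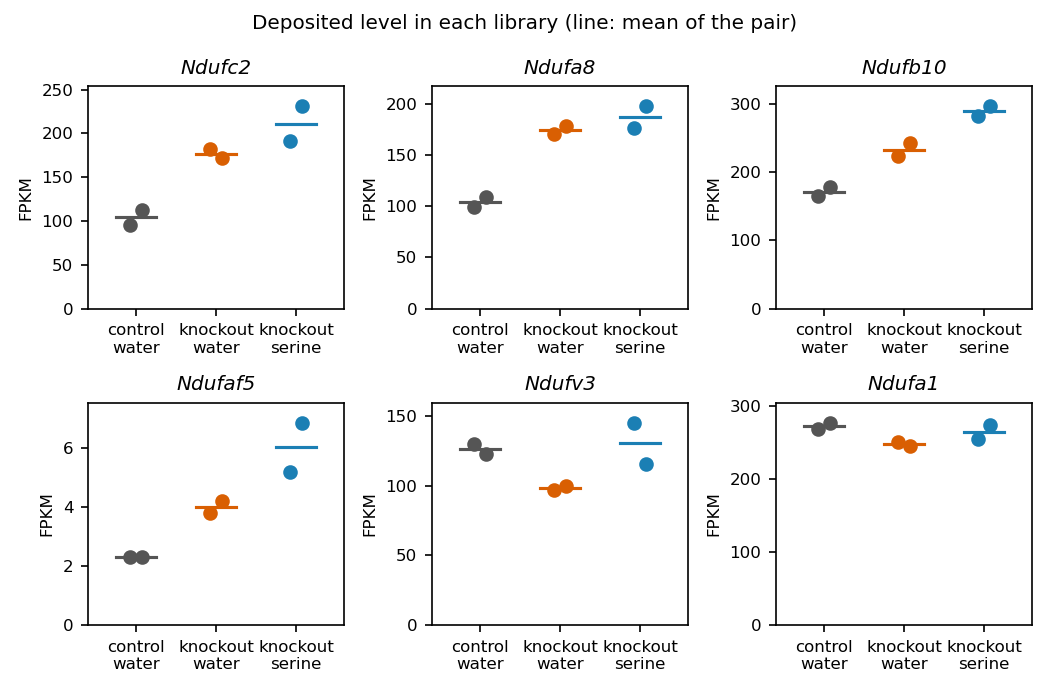
FPKM of 6 Nduf genes in each library (points) with the mean of each pair (line), by group. Ndufc2, Ndufa8, Ndufb10 and Ndufaf5 lie higher in both knockout groups than in controls, Ndufv3 is lowest in knockouts on water (96.6 and 99.8 FPKM), and Ndufa1 stays between 245 and 277 FPKM.

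The core subunits on serine had a median change of 0.48, from 0.12 for Ndufs8 (SE 0.15) to 0.58 for Ndufs3 (SE 0.12, limma adjusted p = 0.0645). Ndufs7 stood at 222 and 244 FPKM against 150 and 171 FPKM (0.54, SE 0.13, adjusted p = 0.0771). Ndufv1 (0.49, SE 0.12, adjusted p = 0.076), Ndufv2 (0.48, SE 0.13, adjusted p = 0.0918) and Ndufs1 (0.37, SE 0.12, adjusted p = 0.12) lay close to it. Again 6 of 7 lay above control without overlap, the exception being Ndufs8, where 41.5% of all genes lay above.

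Among the assembly factors, Ndufaf5 stood at 5.19 and 6.86 FPKM, against 2.32 and 2.30 FPKM in controls, the largest change of any tested member (1.20, SE 0.20), just short of the threshold in limma with Benjamini-Hochberg adjustment (adjusted p = 0.0506). Ndufaf8 stood at 28.5 and 34.3 FPKM against 19.2 and 17.2 FPKM (0.77, SE 0.15, adjusted p = 0.0597). Ndufaf4 stood at 23.6 and 36.0 FPKM (0.98, SE 0.26, adjusted p = 0.0918). All 3 had groups that did not overlap with control.

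Ndufaf6 stood at 20.3 and 12.0 FPKM, against 11.1 and 5.84 FPKM (0.92, SE 0.35, adjusted p = 0.165). Changes of Ndufaf3, Ndufaf7 and Ndufaf1 were 0.44 (SE 0.24), 0.41 (SE 0.16) and 0.33 (SE 0.26), and these also lay above control without overlap. Only Ndufaf2 overlapped, at 18.1 and 15.9 FPKM against 17.7 and 15.4 FPKM (0.04, SE 0.16).

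Members with the lowest changes all belonged to the membrane arm. Ndufa3 stood at 355 and 353 FPKM, below 359 and 400 FPKM in controls (-0.10, SE 0.14, adjusted p = 0.704 in limma). Ndufa1 and Ndufc1 each had a change of -0.05 (SE 0.11 and 0.28) and Ndufb11 one of -0.04 (SE 0.12), all with overlap. The sign of Ndufa1, Ndufc1 and Ndufb11 turned with TPM scaling.

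Serine against water within the knockouts gave 0 called members and 0% of all genes called, in limma with Benjamini-Hochberg adjustment, and 0% called higher. The structural median was 0.10, close to the 0.08 of all genes, and the assembly median was 0.36. Without the second library on serine the assembly median was 0.14. The structural median was 0.02 with median-of-ratios scaling and ranged from 0.05 to 0.17 as each library was left out. At an unadjusted p under 0.05, 2 structural subunits (Ndufv3 and Ndufb10) and 2 assembly factors (Ndufaf5 and Ndufaf8) were higher and 0 members lower, where 5.19% of all genes were higher and 2.04% lower. Libraries on serine lay above both on water for 16 structural subunits and 4 assembly factors and below for 2 structural subunits, where 26.9% of all genes lay above and 10.9% below. The knockout libraries on water enter both this comparison and the first.

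Ndufv3 stood at 145 and 116 FPKM on serine, against 96.6 and 99.8 FPKM on water (0.40, SE 0.14, limma adjusted p = 0.678), so that on serine it spanned its control range of 123 to 130 FPKM. Ndufaf5 (0.52, SE 0.20, adjusted p = 0.679), Ndufaf8 (0.49, SE 0.15, adjusted p = 0.665) and Ndufaf6 (0.58, SE 0.35, adjusted p = 0.742) had the other highest changes, all without overlap. The lowest were Ndufa3 at -0.26 (SE 0.14), Ndufaf2 at -0.17 (SE 0.16), Ndufs4 at -0.16 (SE 0.19) and Ndufa5 at -0.08 (SE 0.25). For Ndufs4 the libraries on water, at 70.7 and 63.0 FPKM, lay above those on serine, at 59.8 and 59.7 FPKM. Ndufa5 overlapped, at 191 and 214 FPKM on water and 184 and 200 FPKM on serine.

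Replicates were compared within each class. The median difference between the 2 libraries of a group was 0.16, 0.13 and 0.11 on the log2 scale for structural subunits, in controls, knockouts on water and knockouts on serine. For assembly factors it was 0.15, 0.20 and 0.46, and for all genes 0.21, 0.21 and 0.23. The libraries on serine gave assembly medians of 0.46 and 0.68 above the control mean and structural medians of 0.32 and 0.43. The difference between the classes was not tested.

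The mitochondrial genome encodes 7 further subunits of complex I, among them the proton pumps of the membrane arm, and 0 of the 7 passed the test in any comparison. Their median change was -0.46 in knockouts on water and -0.66 on serine, with 1 of 7 positive in each, and stayed negative under the 3 other scalings. mt-Nd2 stood at 7711 and 7657 FPKM in controls, 4418 and 4994 FPKM in knockouts on water and 5060 and 3562 FPKM on serine, without overlap with control (-0.71, SE 0.20, limma adjusted p = 0.12, and -0.86, SE 0.20, adjusted p = 0.0715). mt-Nd1, encoded just before it, stood at 6261 and 6650 FPKM in controls and between 7806 and 10083 FPKM in the 4 knockout libraries (0.47, SE 0.19, adjusted p = 0.223, and 0.46, SE 0.19, adjusted p = 0.195).

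Levels of mt-Nd3 and mt-Nd4l are uncertain, since their models of 348 and 297 bases lie below the 500 bases at which the check of depth began. How lengths about as short as the bases taken off were treated is not known. The mitochondrial subunits varied widely between replicates, with library medians of -0.64 and -0.10 on water and -0.37 and -0.90 on serine. The share of all FPKM in mitochondrially encoded genes moved with them, at 9.70% and 12.6% on water and 12.0% and 8.89% on serine, against 12.3% and 12.2% in controls. The nuclear structural subunits had library medians of 0.15 and 0.31 on water and 0.32 and 0.43 on serine. Whether the nuclear and mitochondrial genes differ in their change was not tested.

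**Figure D4:**
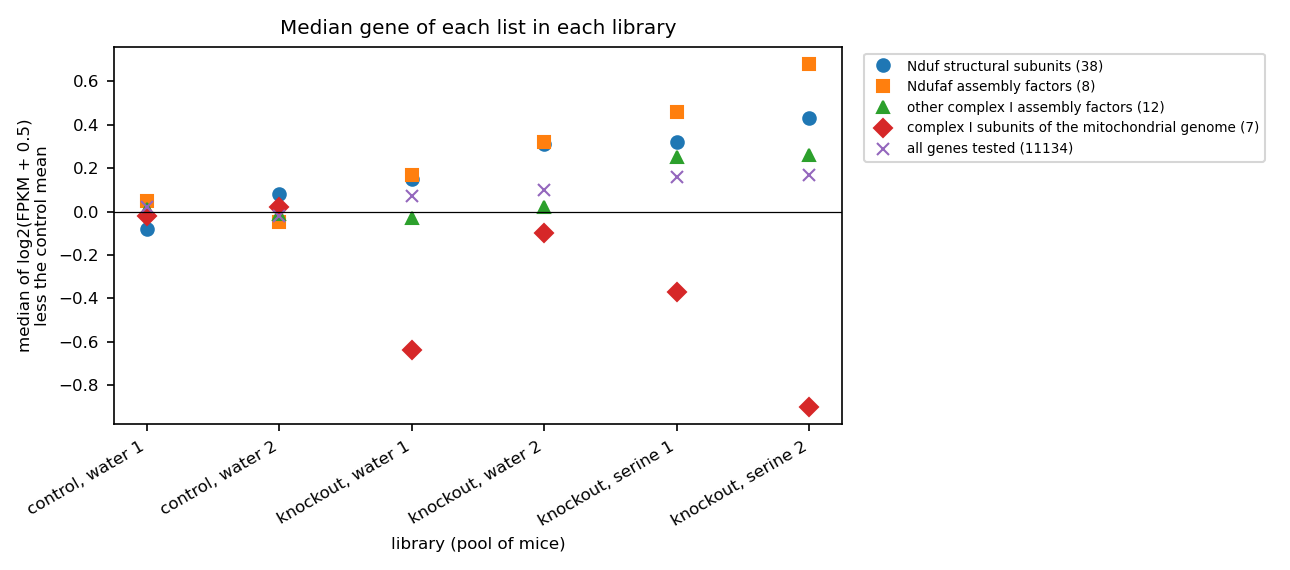
Median over the genes of each list of log2(FPKM + 0.5) less the control mean (vertical axis), in each of the 6 libraries (horizontal axis). Nduf subunits and Ndufaf assembly factors lie above all genes tested in the 4 knockout libraries, and the mitochondrially encoded subunits lie below 0 there, from -0.90 to -0.10. The other complex I assembly factors lie below all genes on water (-0.03 and 0.02 against 0.07 and 0.10). On serine they lie above all genes (0.25 and 0.26 against 0.16 and 0.17).

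Assembly factors of complex I with other names had a median change of 0.00 on water. A positive change was seen in 6 of the 12 that were tested, with 0 called, in 10 with TPM scaling and in 4 with median-of-ratios scaling, and 4 lay above the median gene. On serine 11 of 12 were positive, with a median of 0.29 and 0 called. Foxred1, an oxidoreductase of late assembly, changed by 0.49 (SE 0.14, limma adjusted p = 0.124) on water and 0.40 (SE 0.14, adjusted p = 0.143) on serine. Ecsit, of the membrane arm assembly complex, changed by 0.45 (SE 0.13, adjusted p = 0.12) and 0.57 (SE 0.13, adjusted p = 0.0667).

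Regulators of mitochondrial gene expression, a list that includes Tfam and Ppara, were also measured. All 10 had a positive change in both comparisons with control under every scaling. In the main fit 58.9% of all genes did so on water and 66.3% on serine. The medians of the 10 were 0.57 on water and 0.77 on serine, against 0.08 and 0.16 for all genes. Esrrg, 1 of the 10, lay at 0.17 and 0.29 FPKM in controls and passed the filter only through the knockouts. The sign of its change was thus fixed by the filter and carries no weight. Ppargc1a, the coactivator PGC-1α, rose from 3.43 and 2.47 FPKM in controls to 9.81 and 9.54 FPKM on water (1.57, SE 0.23, adjusted p = 0.0393 in limma). On serine it stood at 7.86 and 11.2 FPKM (1.54, SE 0.23, adjusted p = 0.0454), a call lost with median-of-ratios scaling. Esrra, a nuclear receptor that works with it, stood at 21.8 and 24.5 FPKM in controls, 59.6 and 40.0 FPKM on water and 49.7 and 75.9 FPKM on serine (adjusted p = 0.101 and 0.0547). Nrf1, which binds a palindromic element in many promoters of respiratory genes, changed by 0.41 (SE 0.22, adjusted p = 0.334) and 0.86 (SE 0.22, adjusted p = 0.0861).

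Promoters are shown because some of the members with the largest changes carry the letters of that element. RefSeq (GRCm38.p6) gave a promoter of 250 bases before and 50 after the gene start for 41 of the 48 members. The letters GCATGCGC, searched on both strands, were in 5 of them (12.2%), against 3.05% of 27025 genes. YY1 letters AAGATGGCG were in 14.6% of members against 1.64% of genes, and ETS letters CCGGAAG in 14.6% against 9.93%. ERR letters AAGGTCA were in 7.32% against 5.38%, and their extended form TCAAGGTCA in 0 members against 0.466%. The motifs ERR and its extended form overlap by construction, and a match of letters is not a binding site.

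The 5 members with GCATGCGC were Ndufaf4, Ndufaf5, Ndufa8, Ndufa11 and Ndufa6, and capitals below mark it on either strand; in the palindrome GCGCATGCGC the matches of both strands overlap. Ndufc2 and Ndufb10, the other called members, hold no match and are shown for contrast. On GRCm38.p6 the windows are chr4:24897833-24898132 (plus strand) for Ndufaf4, chr2:140170396-140170695 (plus) for Ndufaf5, chr2:36049289-36049588 (minus) for Ndufa8 and chr17:56717512-56717811 (plus) for Ndufa11. Those of Ndufa6, Ndufc2 and Ndufb10 are chr15:82354242-82354541 (minus), chr7:97399753-97400052 (plus) and chr17:24724374-24724673 (minus). Each is printed 5′ to 3′ along its gene.
Ndufaf4: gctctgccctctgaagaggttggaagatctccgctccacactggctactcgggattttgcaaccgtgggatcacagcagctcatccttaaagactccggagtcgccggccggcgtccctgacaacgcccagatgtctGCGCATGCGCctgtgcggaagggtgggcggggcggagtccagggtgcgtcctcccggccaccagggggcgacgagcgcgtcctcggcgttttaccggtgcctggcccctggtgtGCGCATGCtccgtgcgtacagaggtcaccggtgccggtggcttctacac
Ndufaf5: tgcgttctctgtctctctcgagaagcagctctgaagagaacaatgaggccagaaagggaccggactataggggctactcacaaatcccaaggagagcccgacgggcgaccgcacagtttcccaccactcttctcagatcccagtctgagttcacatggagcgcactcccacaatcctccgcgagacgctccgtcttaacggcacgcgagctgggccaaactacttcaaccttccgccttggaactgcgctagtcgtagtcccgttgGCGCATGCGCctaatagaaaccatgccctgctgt
Ndufa8: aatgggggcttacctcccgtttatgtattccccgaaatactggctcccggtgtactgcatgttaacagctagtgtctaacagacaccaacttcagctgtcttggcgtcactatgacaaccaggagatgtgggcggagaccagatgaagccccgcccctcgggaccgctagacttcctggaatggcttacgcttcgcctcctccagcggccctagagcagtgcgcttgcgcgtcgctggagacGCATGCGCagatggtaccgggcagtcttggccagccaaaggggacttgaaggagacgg
Ndufa11: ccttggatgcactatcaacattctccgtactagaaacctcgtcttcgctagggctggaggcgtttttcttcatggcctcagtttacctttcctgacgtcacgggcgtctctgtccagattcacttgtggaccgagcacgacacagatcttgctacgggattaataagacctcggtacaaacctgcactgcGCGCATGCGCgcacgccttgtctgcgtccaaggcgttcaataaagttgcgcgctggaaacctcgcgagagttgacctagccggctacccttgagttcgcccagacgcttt
Ndufa6: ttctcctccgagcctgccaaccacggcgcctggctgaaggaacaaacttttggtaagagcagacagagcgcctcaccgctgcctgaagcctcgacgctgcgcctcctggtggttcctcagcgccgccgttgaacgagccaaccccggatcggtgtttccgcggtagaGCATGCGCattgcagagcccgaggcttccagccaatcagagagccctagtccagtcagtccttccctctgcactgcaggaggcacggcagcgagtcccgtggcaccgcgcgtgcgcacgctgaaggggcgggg
Ndufc2: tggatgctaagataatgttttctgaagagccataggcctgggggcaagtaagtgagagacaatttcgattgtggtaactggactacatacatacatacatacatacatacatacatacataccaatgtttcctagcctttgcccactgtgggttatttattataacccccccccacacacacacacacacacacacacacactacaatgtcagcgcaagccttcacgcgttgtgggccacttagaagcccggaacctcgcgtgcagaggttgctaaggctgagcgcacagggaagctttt
Ndufb10: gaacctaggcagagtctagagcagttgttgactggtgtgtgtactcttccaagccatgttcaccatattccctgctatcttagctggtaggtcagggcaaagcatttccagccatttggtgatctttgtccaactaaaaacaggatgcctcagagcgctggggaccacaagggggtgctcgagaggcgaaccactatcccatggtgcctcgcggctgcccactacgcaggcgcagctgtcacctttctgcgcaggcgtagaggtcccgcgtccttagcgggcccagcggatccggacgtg
The members with these letters had changes from 0.05 to 0.80 on water and from 0.14 to 1.20 on serine. Ndufaf4, with a match at each of 2 places, changed by 0.80 on water and 0.98 on serine, Ndufaf5 by 0.68 and 1.20, Ndufa8 by 0.74 and 0.84, and Ndufa11, a membrane arm subunit, by 0.42 and 0.53. Ndufa6, of the matrix arm, changed by 0.05 and 0.14 and overlapped with control in both comparisons. Their medians were 0.68 and 0.84, against 0.23 and 0.41 for the 36 members whose promoter lacks the letters, a description with no test. The split by these letters was chosen after the changes were seen, and no such medians were taken for the other motifs. The 6 members with YY1 letters had changes from -0.23 (Ndufc1) to 0.67 (Ndufs4) on water. On serine theirs ran from -0.05 (Ndufc1) to 0.77 (Ndufaf8). Ndufc2, with the largest structural change on serine, does not have the letters GCATGCGC in its window.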

How the data were processed

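Liver RNA was extracted with Trizol and sequenced with standard Illumina protocols, per the labels' protocols. The submitters' processing notes name bcl2fastq, HISAT2 2.0.5 and GRCm39. The authors deposited FPKM for each gene, and these values were taken unchanged. Which tool, annotation release and strand setting made them is not given in the sources used here. For 85.0% to 89.2% of 414 to 447 single-exon genes, low deposited values were whole multiples of a step, against 17.3% to 19.0% by chance. The tolerance was 0.03 fragments plus an allowance for the rounding of the values. The step and the bases taken off each length were those with the largest share above chance, and they gave the implied depth.

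The filter of 1 FPKM on the mean left 11134 of the 22014 genes above 0, and 295 unannotated transcripts were not used. In limma 3.58.1 (R 4.3.3), log2(FPKM + 0.5) of all 6 libraries was fitted with a mean for each of 3 groups, and eBayes with a trend gave 3 residual and 3.46 prior degrees of freedom. The pseudocount understates changes of low genes on the log2 scale. P-values are two-sided and were adjusted by Benjamini-Hochberg over all genes tested, with a threshold of 0.05. The code was tested on simulated data. SE is moderated, and SD is that of the 2 libraries of a group.

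The members, gene lists and tests were chosen with earlier results of these data known. Statistics are given for called members, the 4 highest and 4 lowest members of each comparison, and, against control, the core subunits and all Ndufaf genes. A member that this rule selects is not reported here. Lists are given by counts and medians with members of small p. Other members named for their levels, pattern or promoter letters were chosen after their values were seen. Gene coordinates are the deposited ones (GRCm39), and reference sequences are on GRCm38. Alternatives were other scalings, filters, pseudocounts and variance models, fits of 4 libraries, a replicate block, and leaving out each library.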

Additional observations from a re-analysis of the deposited data

How the results depend on the processing

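In knockouts on water against control, 0 members were called. With TPM scaling, with scaling without mitochondrially encoded genes, and with only the 4 libraries compared, 2 were called, and 1 with a filter at 5 FPKM. Those fits called 170 of 11567, 162 of 11811, 186 of 11096 and 133 of 7262 genes higher, in that order. The main fit called 90 of 11134 genes higher. In knockouts on serine against control, 3 members were called. That count was 7 with TPM scaling, 5 with scaling without mitochondrially encoded genes and 6 with the filter at 5 FPKM. In that order these fits called 327 of 11567, 308 of 11811 and 372 of 7262 genes higher, against 95 of 11134 in the main fit. The count of members was 0 with median-of-ratios scaling, where 16 of 11125 genes were called higher. It was also 0 with no filter, no variance trend, only 4 libraries and the replicate block. In the fits with no filter, no trend, only 4 libraries or a block, few genes of any kind were called there, from 3 to 8.

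The structural median on water was 0.32 with TPM scaling and 0.13 to 0.31 with 1 library left out. On serine it was 0.22 with median-of-ratios scaling, 0.26 to 0.45 with 1 library left out, and 0.48 for core subunits only. The assembly median there was 0.44 with the filter at 5 FPKM, which removes Ndufaf5. Serine against water gave a structural median of 0.02 with median-of-ratios scaling and assembly medians of 0.14 to 0.48 with 1 library left out.

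Signs turned for some members. On water with median-of-ratios scaling, Ndufs8 was at -0.07 and Ndufaf7 at -0.01. On serine with that scaling, Ndufs8 was at -0.04 and Ndufaf2 at -0.12, and with TPM scaling Ndufb11 was at 0.04, Ndufa1 at 0.03 and Ndufc1 at 0.03, with Ndufb11 at 0.01 without mitochondrial genes. With 1 library left out, changes on water ran from -0.14 to 0.15 for Ndufs8, from -0.09 to 0.77 for Ndufaf6, from -0.25 to 0.02 for Ndufs6, from -0.65 to 0.18 for Ndufc1 and from -0.06 to 0.22 for Ndufaf3. Those on serine ran from -0.10 to 0.03 for Ndufb11, from -0.21 to 0.10 for Ndufc1 and from -0.06 to 0.13 for Ndufaf2. The cause was not tested.

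Replicate numbers did not pair the samples, with correlations of same-numbered deviations of 0.0281, 0.0387 and -0.197 between groups. With the replicate block, 0 members were called in each comparison, and the medians did not move.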
